A study of Mus musculus with 23 samples.

Results

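The genes described here are the IL-6, IL-10 and IL-12 family cytokines of mouse macrophages, 10 genes taken by name from the 52636 in the deposited tables: Il6, Lif and Osm of the IL-6 family, Il10, the IL-12 family subunit genes Il12a, Il12b, Il23a, Il27 and Ebi3, and Il23r, which encodes a receptor subunit for IL-23. All 10 were among the 15782 genes that passed the filter on low counts. RNA was measured in bone marrow-derived macrophages, which are macrophages grown in culture from mouse marrow. Cells of wild-type (WT) genotype and cells labelled Stk40 KO were untreated at T0 or given the bacterial product lipopolysaccharide (LPS) and taken at T6, T16 and T32. Each group had 3 libraries, and WT T16 had 2, which makes 11 WT and 12 KO libraries. The sources used here do not give the strain, age or sex of the mice, the part of Stk40 that was deleted, the LPS dose or the unit of the time labels.

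These cytokines are messengers that macrophages release after sensing microbes, and all signal through JAK kinases and STAT transcription factors. IL-6, LIF and oncostatin M act through receptors that share the chain gp130, the product of Il6st, and drive the acute phase response, whereas IL-10 restrains macrophage activation through STAT3. IL-12 family members are paired subunits: Il12a with Il12b makes IL-12, Il23a with Il12b makes IL-23, Il27 with Ebi3 makes IL-27 and Il12a with Ebi3 makes IL-35, so the level of 1 subunit RNA alone does not give the amount of the cytokine. LPS induces several of them through NF-kB, C/EBP and interferon regulatory factors.

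Depth was between 19455080 and 44097733 counts in each of the 23 libraries. Stk40, which encodes a pseudokinase, was not lower in the libraries labelled KO: the average log2 difference over the time points was 0.32 ± 0.08 (SE), with an edgeR adjusted p of 0.00629, so a direction given below is one between labels. Y-linked transcripts were present in 4 WT libraries, 1 at each time label, and in 0 KO libraries. The 4 were replicate 2 at T0 and T16, replicate 1 at T6 and replicate 3 at T32. The numbers are those of the deposited sample table, and what they stand for is not given. WT T16 replicate 2 had the lowest mean correlation with the libraries of its time label, 0.96. All 12 macrophage markers were detected, with summed levels of 14700 to 30900 CPM (counts scaled by library size and TMM factor, as in all CPM values here), Cd163 being the lowest at 0.0589 to 1.29 CPM. All 8 markers of dendritic cells, a cell type that also makes IL-12, were detected: Zbtb46 and Flt3 reached 0.932 and 1.35 CPM, Xcr1 and Cd209a at most 0.204 and 0.359, Clec9a, Siglech and Bcl11a 2.29, 2.50 and 2.57, and Ccr7 14.5. At T6 in WT 3 of the 7 tested rose, where 27.3% of all genes tested were higher and 31.9% lower. They were Ccr7 (log2 2.64 ± 0.33, adjusted p 8.37e-07), Bcl11a (1.28 ± 0.42, 0.0117) and Clec9a (0.99 ± 0.30, 0.00838), and Flt3 fell (-1.42 ± 0.48, 0.0138). At T6 in KO Ccr7 (2.93 ± 0.33, 2.19e-07) and Bcl11a (2.14 ± 0.41, 0.000151) rose (26.2% of all genes higher). Clec9a (0.13 ± 0.30, 0.727) and Flt3 (-0.58 ± 0.44, 0.264) did not pass there. The part of the dendritic cell markers in the cytokine changes was not tested. Since these are bulk samples, fewer producing cells and less RNA per cell cannot be told apart. Where a WT T16 library is left out below, that group has 1 library, which is assumed to vary like those of the other groups. The labels do not say whether libraries came from separate mice or cultures. Each WT group held libraries with and without Y-linked transcripts, so its libraries did not all come from 1 animal. For the KO groups this cannot be told. Whether a mouse gave libraries at several time labels is not given, and the fit treats all 23 libraries as independent. The p-values measure the spread between these libraries only, and how much of it is technical is not known.

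LPS raised most of the 10 genes by T6 and most had fallen back by T16, with 4 exceptions: Ebi3 stayed high, Il23r had its highest level at T32, Osm was lower at T6, and Lif passed the test at T6 in KO but not in WT and at T16 against T6 in neither. In WT libraries 8 genes rose at T6 (Il6, Il10, Il12a, Il12b, Il23a, Il27, Ebi3, Il23r) and Osm fell, where 59.1% of all genes tested passed the test in either direction (edgeR quasi-likelihood test, adjusted p under 0.05), 27.3% higher and 31.9% lower. In KO-labelled libraries 9 rose at T6, Lif being the additional one, and Osm fell (58.6% of all genes called, 26.2% higher and 32.4% lower). The median log2 change of the 10 genes at T6 was 4.49 in WT and 5.88 in KO, against -0.14 and -0.17 over all genes tested. At T16, 5 were higher and 1 lower in WT (36% of all genes called, 18.8% higher and 17.2% lower) and 6 higher in KO (43.7%, 20.4% and 23.3%). At T32, 4 were higher and 2 lower in WT (46.4%, 24.5% and 21.9%), and 4 higher and 1 lower in KO (38.2%, 18.2% and 20%). Between T6 and T16, 6 of 10 fell in WT and 7 of 10 in KO, and Il23r alone rose in both (42.2% of all genes called in WT, 22.7% higher and 19.5% lower, and 46.1% in KO, 24.2% and 21.8%). Later changes were fewer: from T16 to T32 only Il6 passed in WT, downwards (2.91% of all genes called, 1.35% higher and 1.57% lower), while in KO Il6 and Ebi3 fell and Il23r rose (2.55%, 0.748% and 1.81%). WT and KO responses share no samples, but LPS comparisons within a genotype share their T0 libraries.

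**Figure D1:**
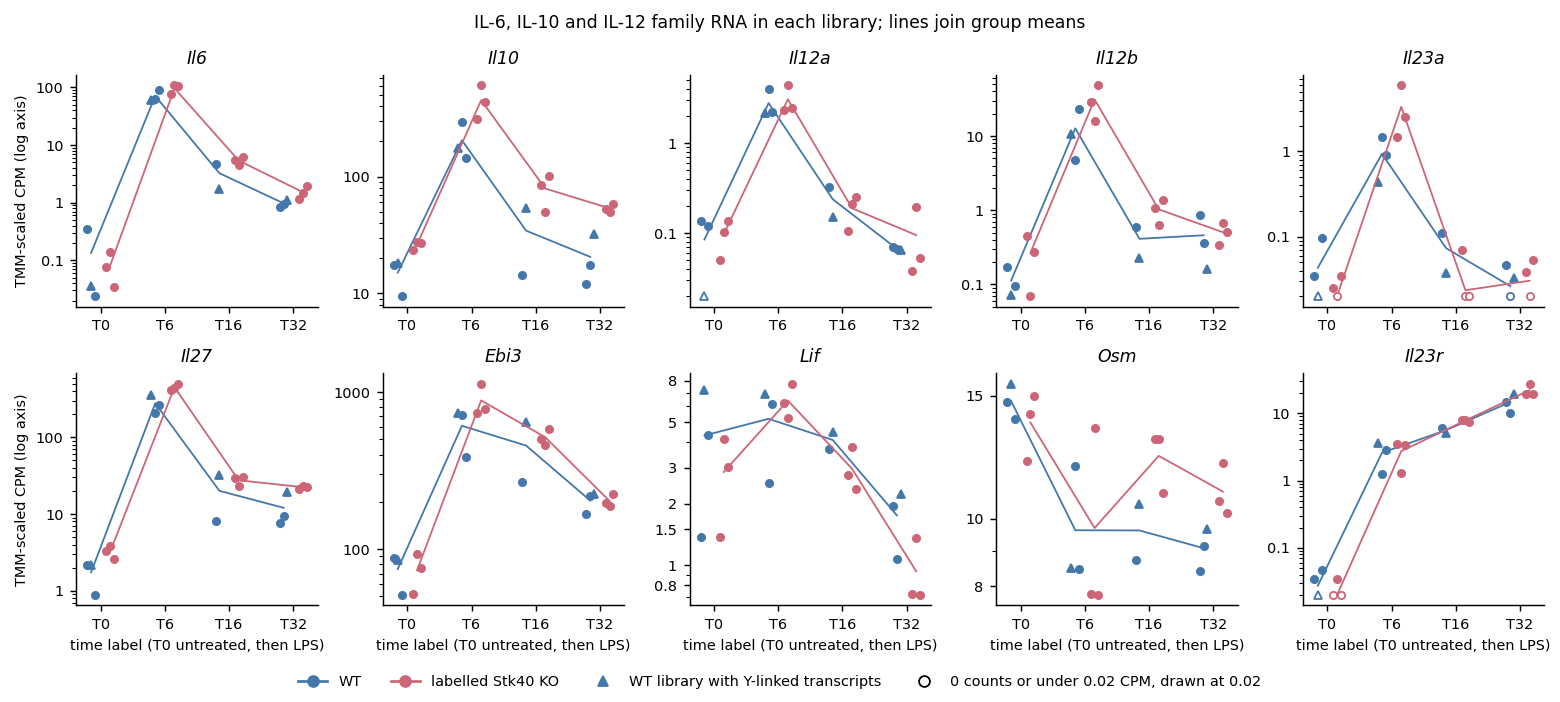
Level of each gene in every library (vertical log axes, TMM-scaled CPM) by time label; points are libraries, lines join group means, triangles are WT libraries with Y-linked transcripts, and open points mark values under 0.02 CPM. Il6 went from a mean of 0.134 CPM at T0 to 71.1 at T6 in WT, while Il23r was highest at T32 in both genotypes.

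**Figure D2:**
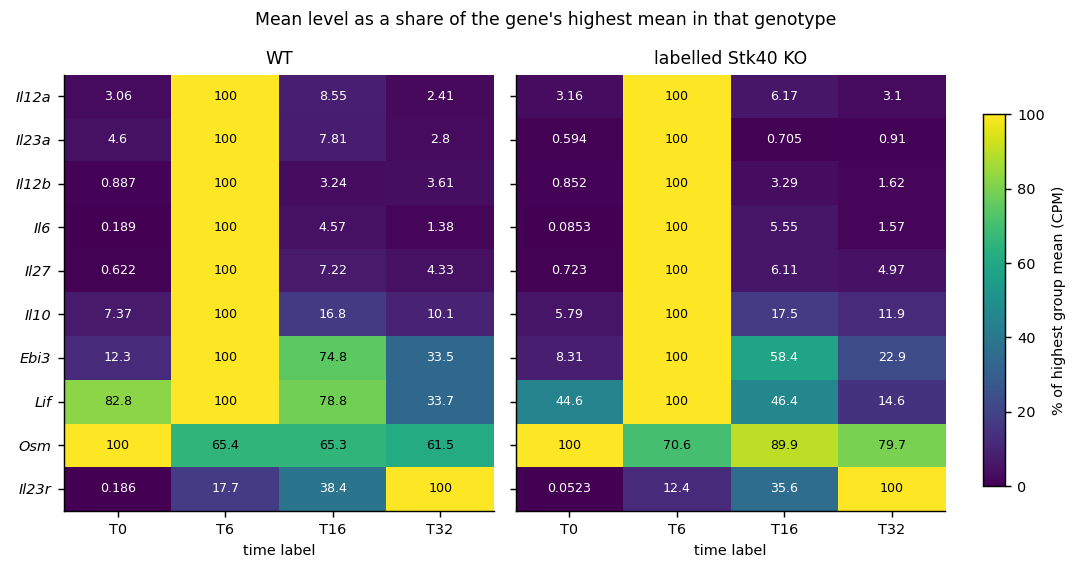
Group mean of each gene as a percentage of its highest group mean in the same genotype (colour and printed value; columns are time labels, WT left and KO-labelled right). Most genes are at 100% at T6. Il10 had 16.8% of that mean left at T16 in WT and 17.5% in KO; Ebi3 kept 74.8% of its T6 mean at T16 in WT and 58.4% in KO, and Il23r reached 17.7% and 12.4% of its T32 mean by T6.

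The RefSeq promoter table (GRCm38.p6) held entries for 6 of the 10: Il6, Il12a (with 2 starts), Il12b, Ebi3, Lif and Il23r. The 250 bases before the start were searched on both strands for the letters of 5 motifs. These were NF-kB (GGG and CC with any 5 bases between), C/EBP (TTNNGNAA), AP-1 (TGANTCA), the interferon-stimulated response element (GAAA and GAAA with any 2 bases between) and STAT (TTCNNNGAA). Of 32851 promoters of that length, 45.8%, 36.8%, 6.75%, 2.98% and 7.02% held a match, in that order. Sequences of 4 genes with unlike time courses are printed from 5′ to 3′ on the gene's strand, with NF-kB and C/EBP matches in capitals. They lie at chr5:30012864-30013113 (Il6, plus strand), chr11:44399813-44400062 (Il12b, plus), chr17:55952373-55952622 (Ebi3, plus) and chr6:67491856-67492105 (Il23r, minus).
Il6: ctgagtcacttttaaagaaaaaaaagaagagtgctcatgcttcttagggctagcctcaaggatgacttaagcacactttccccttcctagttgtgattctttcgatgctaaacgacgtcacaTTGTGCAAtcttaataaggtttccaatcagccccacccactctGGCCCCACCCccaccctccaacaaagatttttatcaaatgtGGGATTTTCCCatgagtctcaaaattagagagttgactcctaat
Il12b: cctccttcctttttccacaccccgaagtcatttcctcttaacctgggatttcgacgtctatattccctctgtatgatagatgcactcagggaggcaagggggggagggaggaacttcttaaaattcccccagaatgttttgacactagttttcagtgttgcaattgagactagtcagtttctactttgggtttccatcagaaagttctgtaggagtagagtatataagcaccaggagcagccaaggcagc
Ebi3: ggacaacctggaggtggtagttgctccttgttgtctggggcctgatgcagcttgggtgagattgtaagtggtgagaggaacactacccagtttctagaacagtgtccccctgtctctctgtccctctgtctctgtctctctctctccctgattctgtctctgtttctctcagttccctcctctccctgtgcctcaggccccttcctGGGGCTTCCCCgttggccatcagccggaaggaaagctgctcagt
Il23r: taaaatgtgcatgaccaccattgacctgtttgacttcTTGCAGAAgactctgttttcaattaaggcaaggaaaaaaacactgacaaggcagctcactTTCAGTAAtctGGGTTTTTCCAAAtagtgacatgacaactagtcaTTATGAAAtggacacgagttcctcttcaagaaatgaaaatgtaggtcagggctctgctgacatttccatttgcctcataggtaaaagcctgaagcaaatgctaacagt
In Il6 the capitals are a C/EBP match starting 128 bases before the start, an NF-kB match on the opposite strand at 85, and overlapping NF-kB matches on both strands from 44; an AP-1 match lies at 249. Ebi3 had 2 overlapping NF-kB matches at 44 and 43. Il23r had 4 C/EBP matches, at 213, 153, 137 and 108, the third overlapping its NF-kB match at 142. Lif, not printed, had 4 NF-kB matches and 1 AP-1 match, and the second Il12a start had 2 overlapping NF-kB matches at 113 and 112. In the Il12b window none of the letter patterns was found, and no member window held the interferon-stimulated response element or STAT letters. A match is a description of the letters and not evidence of a bound site. Equally, a window without a match may hold sites with other letters, so it is not evidence that a site is absent.

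Il6 (chromosome 5, 30013114 to 30019981, plus strand, GRCm38), the acute phase cytokine, showed the highest log2 rise of the 10 genes at T6 in both genotypes. It had 12 counts in all at T0 in WT, at 0.343, 0.0359 and 0.0238 CPM, and 8 in KO, at 0.0753, 0.139 and 0.0344 CPM. At T6 it stood at 59.7, 63.0 and 90.5 CPM in WT and at 76.1, 110 and 105 CPM in KO. No T0 library came near a T6 library, and the genotypes overlapped at both. The ratio of T6 to T0 from summed counts was 576 in WT (95% exact interval 329 to 1120, for counting error only) and 1170 in KO (594 to 2710). The fitted log2 change was 9.13 ± 0.51 (SE) in WT (adjusted p 9.63e-12) and 10.14 ± 0.54 in KO (4.37e-12). Without WT T0 replicate 1, which held 10 of the 12 counts, the WT change was 11.11 at T6, 6.67 at T16 and 4.91 at T32, against 9.13, 4.70 and 2.94 with it, and without WT T0 replicate 3 it was 8.52, 4.08 and 2.32. By T16 Il6 was at 4.74 and 1.76 CPM in WT and at 5.51, 4.55 and 6.11 CPM in KO, and by T32 at 0.836 to 1.13 and 1.15 to 1.96 CPM. From T6 to T16 it fell in both (log2 -4.43 ± 0.43 in WT and -4.17 ± 0.36 in KO), with -5.33 in WT, and 3.8 for T16 against T0, when WT T16 replicate 1 was left out. At T32 it was still above T0 in both (log2 2.94 ± 0.58 and 4.17 ± 0.60, adjusted p 0.000393 and 1.63e-05). The WT fall from T16 to T32, -1.76 ± 0.41 with an adjusted p of 0.0215, was lost without WT T16 replicate 1 (-0.86, 0.22), WT T32 replicate 1 (-1.66, 0.095) or WT T32 replicate 2 (-1.75, 0.081), and the KO fall of -1.80 ± 0.36 (0.00669) without KO T32 replicate 1 (-1.65, 0.052).

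Il10 (chromosome 1, 131019845 to 131024974, plus strand), the main deactivating cytokine of macrophages, was already expressed before LPS. WT libraries held 17.5, 18.2 and 9.45 CPM at T0 and 176, 292 and 145 CPM at T6. KO-labelled libraries held 23.3, 27.7 and 27.1 CPM at T0 and 309, 606 and 434 CPM at T6. Every KO library was above every WT library at both labels, and every T6 library was above every T0 library. Il10 rose by T6 by log2 3.77 ± 0.46 in WT (adjusted p 6.3e-07) and 4.11 ± 0.47 in KO (2.14e-07). At T16 the 2 WT libraries stood far apart, at 14.5 and 54.3 CPM, the higher being the one with Y-linked transcripts, and KO libraries were at 85.1, 49.3 and 102 CPM. The KO T16 level was above T0 (log2 1.60 ± 0.42, adjusted p 0.00482). The WT change of 1.19 ± 0.46 passed narrowly (0.0487) and rested on single libraries: it was -0.04 (0.97) without WT T16 replicate 2, 1.86 (0.0042) without WT T16 replicate 1, and 1.33, 1.35 and 0.95 (0.064, 0.058 and 0.17) without WT T0 replicates 1, 2 and 3. At T32 WT libraries held 12.1, 17.4 and 32.1 CPM and KO libraries 53.0, 49.3 and 58.2 CPM, again with no overlap. Against T0 these differed by 0.45 in WT (adjusted p 0.389) and 1.04 ± 0.42 in KO (0.0552), the latter passing in 5 of 13 alternatives, with a lowest adjusted p of 0.00039 when only the groups compared were fitted and 0.035 with DESeq2. From T6 to T16 Il10 fell by test in both genotypes (-2.57 in WT and -2.51 in KO), the WT value being -1.91 without WT T16 replicate 1 and -3.81 without replicate 2.

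The 3 subunit genes of IL-12 and IL-23 were near the detection limit at T0 and had a short peak. Il12b (chromosome 11, 44400063 to 44414033, plus strand), whose product is shared by both cytokines, went from 0.171, 0.0717 and 0.0952 CPM to 10.5, 4.76 and 22.8 CPM at T6 in WT, and from 0.452, 0.0693 and 0.275 CPM to 28.7, 16.1 and 48.6 CPM in KO. In both genotypes replicate 2 was the lowest T6 library, and the genotypes' ranges overlapped. The log2 rise was 6.79 ± 0.76 in WT (adjusted p 1.59e-07) and 6.78 ± 0.69 in KO (4.31e-08), and from T6 to T16 the log2 change was -4.88 ± 0.76 and -4.90 ± 0.60, downwards by test in both. Leaving out WT T6 replicate 3 gave 6.07 and -4.16 in WT, WT T16 replicate 1 gave -5.80, and KO T0 replicate 1 gave 7.47 in KO. Il12a (chromosome 3, 68690644 to 68698547, plus strand), the partner of Il12b in IL-12, had at most 5 counts in a T0 library and was listed there at 0.137, 0 and 0.119 CPM in WT and 0.0502, 0.104 and 0.138 CPM in KO. It reached 2.17, 4 and 2.20 CPM at T6 in WT and 2.35, 4.42 and 2.46 CPM in KO. Here replicate 2 was the highest T6 library of both genotypes, and the ranges overlapped. The rise was log2 4.89 ± 0.58 in WT and 4.97 ± 0.58 in KO (adjusted p 3.49e-07 and 2.59e-07). Il23a (chromosome 10, 128296139 to 128298752, minus strand), the IL-23 partner, had 5 counts in all at T0 in WT and 2 in KO. It reached 0.434, 1.46 and 0.920 CPM at T6 in WT and 1.46, 6.01 and 2.55 CPM in KO, replicate 2 being highest in both and the lowest KO library just above the highest WT one. The ratio of T6 to T0 from summed counts was 16.4 in WT (95% exact interval 6.61 to 52.5) and 152 in KO (41.5 to 1260), both intervals covering counting error only. The fitted rise was called in both (4.10 ± 0.86 and 7.08 ± 0.94, adjusted p 0.000309 and 1.1e-06), at 5.42 in WT without WT T0 replicate 3 and 6.37 in KO without KO T6 replicate 2. Both genes fell between T6 and T16 in both genotypes, Il23a in WT only with WT T16 replicate 2 included (-3.48, adjusted p 0.00469, against -3.01 and 0.055 without it, and -4.45 without WT T16 replicate 1). Il12a changed by -3.47 in WT (-4.16 without WT T16 replicate 1) and -3.95 in KO. Il23a changed by -7.04 in KO, with -9.67, -6.39 and -6.33 without KO T16 replicate 1, KO T16 replicate 3 and KO T6 replicate 2. In KO the T16 level of Il12b was still above T0 (1.88 ± 0.70, adjusted p 0.0337), a call at 2.56 without KO T0 replicate 1 and lost without KO T0 replicate 2 (1.47, 0.13), KO T0 replicate 3 (1.88, 0.078), KO T16 replicate 1 (1.87, 0.064) or KO T16 replicate 3 (1.59, 0.12).

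Il27 (chromosome 7, 126589010 to 126594941, minus strand) and Ebi3 (chromosome 17, 55952640 to 55957022, plus strand), the 2 subunits of IL-27, had unlike time courses. Il27 stood at 2.16, 2.15 and 0.881 CPM at T0 in WT and at 3.31, 3.88 and 2.58 CPM in KO, and at T6 at 360, 208 and 267 CPM in WT and 412, 438 and 501 CPM in KO. The KO libraries were above the WT libraries at both labels with no overlap. Its log2 rise was 7.36 ± 0.51 in WT and 7.11 ± 0.49 in KO (adjusted p 1.62e-10 and 1.85e-10). By T16 it was down to 8.14 and 32 CPM in WT, the higher again in replicate 2, and to 29.1, 23.3 and 30.2 CPM in KO. Both genotypes nonetheless remained above T0 at T16 (log2 3.56 ± 0.47 and 3.08 ± 0.42) and T32 (2.82 ± 0.44 and 2.78 ± 0.42). Without WT T16 replicate 2 the WT value at T16 was 2.27 (0.00059), and without replicate 1 4.24 (2.4e-07). Ebi3 was abundant throughout. It held 87.6, 85.4 and 51.2 CPM at T0 in WT and 51.5, 92.9 and 75.7 CPM in KO, then 731, 714 and 385 CPM and 740, 1130 and 784 CPM at T6. Every LPS library exceeded every T0 library of its genotype. It rose by 3.03 ± 0.32 in WT and 3.59 ± 0.33 in KO (adjusted p 9.48e-08 and 1.17e-08), and at T16 was still at 267 and 646 CPM in WT and 505, 462 and 579 CPM in KO. Both remained above T0 (2.61 in WT, 1.84 without WT T16 replicate 2, and 2.81 in KO), as they did at T32 (1.45 ± 0.31 and 1.46 ± 0.31, adjusted p 0.000763 and 0.000845). The WT change from T6 to T16, -0.42 ± 0.34, did not pass the test (adjusted p 0.343). In KO the fall of -0.78 ± 0.30 (0.0396) was lost without KO T16 replicates 1, 2 or 3 (-0.76, -0.70 and -0.87, adjusted p 0.092, 0.12 and 0.053) or KO T6 replicate 2 (-0.57, 0.16), and with library totals in place of TMM (-0.40, 0.25). The later KO fall of -1.35 ± 0.30 from T16 to T32 (0.0174) was lost without KO T16 replicates 1 or 3 (-1.36 and -1.26, adjusted p 0.055 and 0.076) or KO T32 replicates 1, 2 or 3 (-1.33, -1.29 and -1.43, adjusted p 0.084, 0.088 and 0.059). Both genes share exon sequence with a gene on the opposite strand, Il27 over 103 bases with Apobr and Ebi3 over 270 bases with Gm16712, and reads there cannot be assigned because the library kit does not mark strand. Gm16712 had 516 counts in all libraries together and Apobr 156367. At T0 the mean of Apobr was 137 CPM in WT and 196 in KO, against 1.73 and 3.26 for Il27. How far Apobr reads enter the Il27 counts, and so the Ebi3 to Il27 ratios below, was not tested.

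Lif and Osm, neighbours on chromosome 11 (4257557 to 4272514 and 4236420 to 4241026, both plus strand), had the smallest log2 changes of the 10 at T6. Lif, which acts through gp130 with the receptor Lifr, stood at 1.37, 7.21 and 4.36 CPM at T0 in WT and 1.38, 4.16 and 3.03 CPM in KO, and at T6 at 6.90, 2.54 and 6.18 CPM and 6.21, 5.24 and 7.73 CPM. The WT ranges overlapped and the change did not pass (0.29 ± 0.47, adjusted p 0.616). In KO all 3 T6 libraries were above the T0 libraries and the rise of 1.18 ± 0.48 passed (0.0414), but not without KO T0 replicate 1 (0.84, 0.16), KO T0 replicate 3 (1.23, 0.075), KO T6 replicate 1 (1.20, 0.069) or KO T6 replicate 3 (1.02, 0.12), and with library totals it was 0.31 (0.57). At T32 Lif was at 1.95, 1.07 and 2.24 CPM in WT and 0.726, 1.36 and 0.716 CPM in KO, below T0 by test in both (-1.30 ± 0.49 and -1.59 ± 0.52, adjusted p 0.0339 and 0.0198), although WT T0 replicate 1 lay within the WT T32 range and KO T0 replicate 1 just above the KO range. The WT call was lost without WT T0 replicates 2 or 3 (-0.73 and -1.28, 0.25 and 0.068) or WT T32 replicates 1 or 2 (-1.39 and -1.04, 0.063 and 0.13), and the KO call without KO T0 replicate 2 (-1.21, 0.11) or KO T32 replicates 1 or 3 (-1.45 and -1.41, 0.072 and 0.075). Osm, the gene for oncostatin M, was the only one of the 10 highest at T0 in both genotypes. It held 14.7, 15.6 and 13.9 CPM there in WT and 12.1, 14.1 and 15 CPM in KO, and 8.50, 11.9 and 8.48 CPM and 7.81, 13.5 and 7.78 CPM at T6. In WT no T6 library reached the T0 range, while in KO replicate 2 did. Osm fell in WT at T6 (log2 -0.62 ± 0.19, adjusted p 0.0082), T16 (-0.62 ± 0.21, 0.028) and T32 (-0.70 ± 0.19, 0.00487). With library totals in place of TMM the change at T6 was -1.42 (3.7e-06) in WT and -1.34 (7.1e-06) in KO, and the median gene was then also lower. With the 4 Y-linked-positive WT libraries left out the T6 and T16 calls were lost (-0.49 and -0.71, both 0.11), as was that of Lif at T32 (-0.94, 0.22). The WT T16 call did not hold without WT T0 replicates 1 or 2 (-0.60 and -0.57, 0.061 and 0.072) or WT T16 replicate 1 (-0.49, 0.18), or without the filter on low counts (-0.62, 0.054). The KO change passed at T6 alone (-0.51 ± 0.19, 0.0266), not without KO T0 replicates 2 or 3 (-0.49 and -0.44, 0.061 and 0.091) or KO T6 replicates 1 or 3 (both -0.37, 0.13 and 0.14), was -0.81 (0.00034) without KO T6 replicate 2, and was not called with DESeq2 (-0.40, 0.068) or with only the groups compared (-0.46, 0.18). The difference in LPS response between genotypes was tested and did not pass for either gene at any label.

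Il23r (chromosome 6, 67422932 to 67491855, minus strand), best known from T helper 17 cells and innate lymphocytes, was above T0 at every LPS label and highest at T32. It had 3 counts in all at T0 in WT and 1 in KO. WT libraries held 3.67, 1.27 and 2.86 CPM at T6, 6.10 and 5.18 at T16 and 14.6, 10.3 and 19.3 at T32. KO-labelled libraries held 3.55, 1.30 and 3.37 CPM, then 8.08, 8 and 7.48, then 19.3, 27.6 and 19.4. Within each genotype the ranges at T6, T16 and T32 did not overlap, and replicate 2 was the lowest T6 library in both. The ratio of T32 to T0 from summed counts was 468 in WT (95% exact interval 160 to 2270) and 2180 in KO (391 to 86200), for counting error only. The fitted changes depend on the prior count and on those few T0 counts: without KO T0 replicate 2, which held the 1 count, they were 9.41, 10.91 and 12.40 at T6, T16 and T32 in KO, and without WT T0 replicate 3 they were 6.96, 8.03 and 9.41 in WT. The edgeR test called the rise at each LPS label in each genotype, with adjusted p between 3.07e-10 and 3.75e-08. Steps between LPS labels were less secure. From T6 to T16 Il23r rose by 1.08 ± 0.38 in WT (0.0271), lost without WT T6 replicate 2 (0.78, 0.097) or either WT T16 library (0.96 and 1.20, 0.12 and 0.054), and by 1.5 ± 0.35 in KO (0.00143), which no left-out library ended. From T16 to T32 the KO rise of 1.49 ± 0.33 passed (0.0155), though not without KO T16 replicates 1, 2 or 3 (1.51, 1.51 and 1.46, 0.075, 0.062 and 0.08) or KO T32 replicate 2 (1.30, 0.093), while the WT change of 1.38 ± 0.38 did not (0.056), though it did with DESeq2 (1.36, 0.014). Defining lymphocyte genes were near 0 in all libraries: Cd3e, Cd3d, Cd3g and Trdc did not exceed 0.277 CPM and Il17a had 0 counts. The summed level of the 14 T, NK and innate lymphoid markers was 132 to 163 CPM at KO T16 against 26.3 to 45.6 at WT T16, and 130 to 214 against 29.9 to 55.2 at T32. At T0 it was 115 to 211 in KO and 77 to 109 in WT, and at T6 the genotypes overlapped (55.8 to 123 and 35.1 to 74.7). It was carried by Il7r, at 12.9 to 192 CPM over all libraries, and Cd4, at 8.43 to 32.3, and Il7r was higher in KO by 2.50 ± 0.54 at T16 (0.00926) and 2.60 ± 0.46 at T32 (0.00196). Il23r itself did not pass between genotypes at T16 (0.48 ± 0.37, adjusted p 0.444) or T32 (0.59 ± 0.32, 0.343).

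Levels were compared between genes per length, with the deposited size-factor-adjusted RPKM (nRPKM). At T6 in WT the order of mean nRPKM was Ebi3 (479), Il27 (250), Il10 (144), Il6 (26.9), Il12b (5.94), Osm (3.91), Il12a (1.88), Lif (1.18), Il23r (0.958) and Il23a (0.637). Neighbours whose library ranges did not overlap were Il10 and Il6, Il6 and Il12b, and Osm and Il12a. The KO order was the same down to Osm, at higher means for Ebi3 (711), Il27 (416), Il10 (323), Il6 (37.6) and Il12b (14.9), followed by Il23a (2.31), Il12a (2.11), Lif (1.49) and Il23r (1.04). In KO, Il12b and Osm also did not overlap, nor did Ebi3 and Il27. By T32 in WT Ebi3 still led at 151 nRPKM, followed by Il10 (13.6), Il27 (10.2), Il23r (5.10) and Osm (3.45), and Il6 was at 0.347 nRPKM. Il10, Il27 and Il23r each overlapped the next gene in that order.

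Ratios of subunit nRPKM within a library, taken where both genes had at least 10 counts, showed how the partners shifted. The Ebi3 to Il27 ratio was 35.4, 34.7 and 50.7 at T0 in WT and 13.6, 20.9 and 25.6 in KO. At T6 it was 1.77, 2.99 and 1.26 in WT and 1.57, 2.24 and 1.37 in KO. It was 28.6 and 17.6 at T16 in WT and 15.1, 17.3 and 16.7 in KO, and at T32 19.3, 20.2 and 10.3 in WT and 8.23, 6.93 and 8.57 in KO. The 2 RNAs were thus nearest to equal at T6, and at T0, T16 and T32 every KO library had a lower ratio than every WT library. No test was made, as 3 libraries against 3 cannot give a two-sided exact permutation p under 0.1. In WT the ratio at T16 and T32 was lowest in the library with Y-linked transcripts, and with only the other WT libraries the gap to KO was wider at both. For IL-12, the Il12b to Il12a ratio at T6 was 3.39, 0.829 and 7.24 in WT and 8.50, 2.54 and 13.8 in KO. For IL-23, Il12b to Il23a was 16.8, 2.25 and 17.2 in WT and 13.6, 1.85 and 13.2 in KO. In both genotypes replicate 2 had the lowest value of both ratios, and the genotypes overlapped for both. Between libraries of the same number, the one labelled KO had the higher Il12b level, the higher Il12b to Il12a ratio and the lower Il12b to Il23a ratio in 3 of 3 cases, which carries no test. Ebi3 exceeded Il12a at T6 with ratios of 205 to 395 in WT and 298 to 374 in KO on the nRPKM scale.

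**Figure D3:**
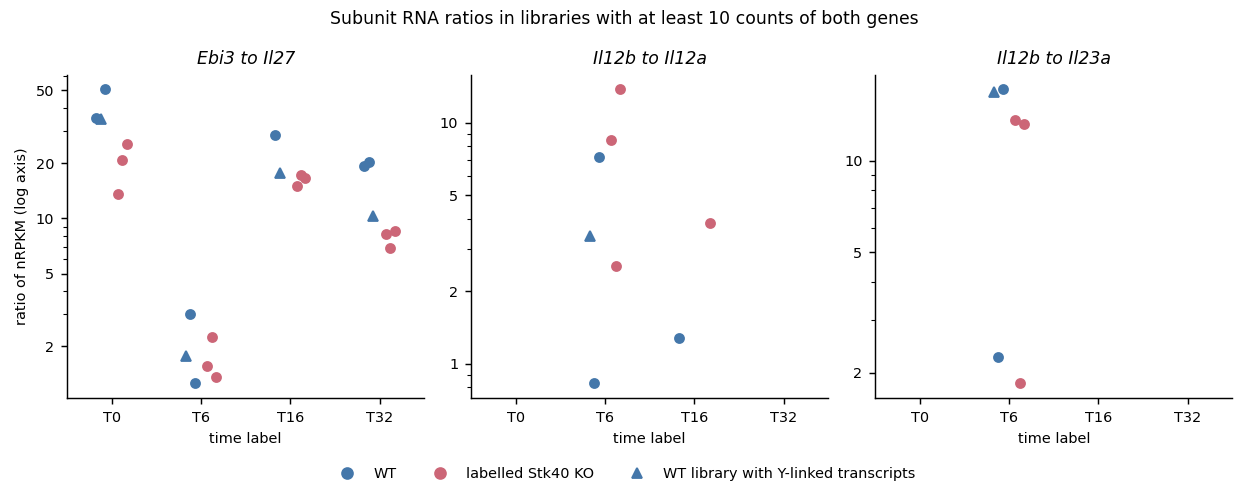
Ratio of nRPKM of 2 subunit RNAs in each library (vertical log axes) by time label, for Ebi3 to Il27, Il12b to Il12a and Il12b to Il23a; points are libraries and triangles WT libraries with Y-linked transcripts. The Ebi3 to Il27 ratio was 1.26 to 2.99 at T6 in WT and 34.7 to 50.7 at T0.

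The libraries numbered 2 at T6 stood apart in both genotypes. Each had the highest Il10, Il12a, Il23a and Osm and the lowest Il12b, Il23r and Lif of its group. They also had the highest level of the acute phase gene Saa3, 22900 CPM in WT and 24100 in KO against 6340 to 12000 in the other T6 libraries, and the highest mitochondrial share of counts, 1.1% and 0.68% against 0.35% to 0.47%. The part of these in the cytokine values was not tested. In a fit without both, chosen after seeing the data, no call among KO against WT at T6 was gained, and Osm was at -0.81 (7.4e-05) in KO in place of -0.51. The Il12b average between genotypes then passed (0.98, 0.028).

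The genotypes were then compared at each time label and averaged over the 4. Il10 and Il27 were higher in the libraries labelled KO on average: Il10 by log2 1.13 ± 0.22 (adjusted p 0.00102) and Il27 by 0.75 ± 0.20 (0.0119). These 2 of 10 genes stand beside 22.3% of all genes tested that passed in either direction and 12.1% that were higher, so their count is near the background. The median difference of the 10 was 0.15, against -0.02 over all genes tested. Il12b came next at 0.99 ± 0.37 and missed the threshold (0.0585). It passed with DESeq2 (1.02, 0.013) and without KO T0 replicate 2 (1.09, 0.035), KO T6 replicate 2 (1.07, 0.029), WT T16 replicate 1 (1.22, 0.041), WT T32 replicate 1 (1.19, 0.027) or WT T6 replicate 3 (1.17, 0.018). Il6 had 0.32 ± 0.29, Ebi3 0.17 ± 0.15, Osm 0.13 ± 0.10, Il12a 0.10 ± 0.34, Il23r -0.03 ± 0.51, Il23a -0.18 ± 0.70 and Lif -0.42 ± 0.25, none of which passed. The SE of Il23a and Il23r means that differences of about their size were not detectable at this depth. Apobr, whose exons overlap those of Il27, was also higher in KO on average (0.45 ± 0.09, adjusted p 0.00186), at group means of 137 to 346 CPM. Markers of other cell types also differed between the genotypes. Neutrophil and precursor genes, 10 listed and 0 at 0 counts, summed to 583 to 710 CPM in KO and 307 to 529 in WT at T6, and to 86.4 to 134 and 50.1 to 70.6 at T32, while the genotypes overlapped at T0 (611 to 709 and 325 to 615) and T16 (304 to 379 and 137 to 327). Mast cell and basophil genes summed to 189 to 224 CPM in KO and 126 to 183 in WT at T6, carried by Hdc, at most 221 CPM, with 1 and 3 of 7 genes at 0, and were also higher in each KO library at T0 (6.92 to 10.7 against 5.20 to 5.55), T16 (19.6 to 27.0 against 8.68 to 16) and T32 (9.89 to 14.5 against 6.01 to 9.82). Dendritic cell genes overlapped at T0, T6 (12.1 to 21.6 and 12.1 to 15.5 CPM) and T32, but at T16 summed to 8.36 to 10.7 CPM in KO and 4.69 to 6.26 in WT. That T16 sum was carried by Ccr7, at means of 5.99 and 3.62 CPM. None of the dendritic genes tested was called at T16 (7.64% of all genes), and Zbtb46 was lower in KO (-0.67 ± 0.56, adjusted p 0.471). On average Clec9a alone of them was called, higher in KO (0.55 ± 0.17, 0.023). B cell genes summed to at most 12.5 CPM, and at T32 to 2.75 to 4.7 in KO and 5.61 to 6.93 in WT. Stromal and endothelial genes summed to 43.4 to 459 CPM in WT and 73.5 to 324 in KO. At T16 each KO library was lower for them (158 to 324 against 423 to 439). For both sets the genotypes overlapped at the other labels. Of the stromal and endothelial genes, Kdr (1.605 ± 0.18, 5.73e-06) and Cdh5 (0.755 ± 0.20, 0.00994) were higher in KO on average. Col1a1 (-1.24 ± 0.43, 0.0434) and Col1a2 (-1.11 ± 0.39, 0.0444) were lower. The part of these cell type markers in the genotype differences was not tested.

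**Figure D4:**
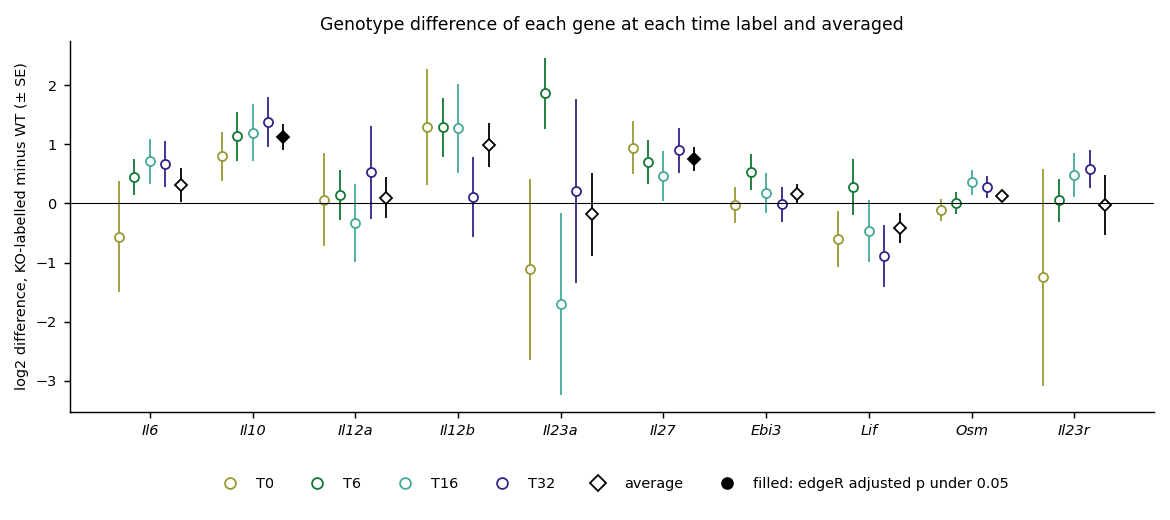
Log2 difference of KO-labelled minus WT libraries for each gene at T0, T6, T16 and T32 (circles) and averaged (diamonds), with SE bars; filled symbols passed the edgeR test at an adjusted p under 0.05. The averages of Il10 (1.13) and Il27 (0.75) are the filled symbols.

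At single labels edgeR called 0 of the 10 genes: the share of all genes called was 1.95% at T0, 0.298% at T6, 7.64% at T16 and 6.39% at T32. At an unadjusted p under 0.05 there was 1 at T0 (Il27), 3 at T6 (Il10, Il12b and Il23a), 1 at T16 (Il10) and 2 at T32 (Il10 and Il27), and DESeq2 called 0, 0, 0 and 1 (Il10). Il10 differed by 0.80 ± 0.42, 1.14 ± 0.41, 1.20 ± 0.48 and 1.38 ± 0.42 at the 4 labels, with edgeR adjusted p of 0.579, 0.319, 0.125 and 0.0546. Il27 differed by 0.94 ± 0.44, 0.70 ± 0.37, 0.46 ± 0.43 and 0.90 ± 0.38, with adjusted p of 0.491, 0.598, 0.522 and 0.19. Il12b was 1.29 ± 0.98, 1.29 ± 0.50, 1.27 ± 0.75 and 0.11 ± 0.68, and Il23a 1.86 ± 0.60 at T6 (adjusted p 0.24). With each library left out in turn Il12b ranged from 0.81 to 2.01 at T6 (highest without WT T6 replicate 3) and from 0.79 to 2.19 at T16 (highest without WT T16 replicate 1), and Il23a at T6 from 1.14 (without KO T6 replicate 2) to 2.32. All KO libraries lay above all WT libraries for Il10 and Il27 at T0 (2 of 10, against 8.79% of all genes), for Il10, Il23a, Il27 and Ebi3 at T6 (4 of 10, 5.96%), for Il12b, Osm and Il23r at T16 (3 of 10, 20.4%) and for Il6, Il10, Il27 and Osm at T32 (4 of 10, 17.5%). The reverse, all KO below all WT, occurred for 0 of the 10 at any label. Of all genes tested, 6.3%, 5.08%, 21.5% and 18.6% did so at T0, T6, T16 and T32. The change of the genotype difference after LPS passed for 0 of 10 genes at T6, T16 and T32 by edgeR and by DESeq2, with 0 at an unadjusted p under 0.05 (0.101%, 0.0697% and 0.387% of all genes called).

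At T16 and T32, but not at T6 for Il10, the WT library with Y-linked transcripts was the highest WT library for both genes. At T6 it held 176 CPM of Il10, between the 145 and 292 of the others, and 360 of Il27, above 208 and 267. At T16 the WT library with them held 54.3 CPM of Il10 and 32 of Il27, against 14.5 and 8.14 in the other, and at T32 32.1 and 19.1 CPM, against 12.1 and 17.4 of Il10 and 7.57 and 9.48 of Il27. With those 4 WT libraries left out, Il10 was higher in KO by 2.44 at T16 (adjusted p 0.046) and 1.86 at T32 (0.0096), and Il27 by 1.76 (0.032) and 1.39 (0.0051). The T16 values there set 1 WT library against 3 KO libraries, with the spread taken from the other groups, and with WT T16 replicate 2 alone left out the same differences were not called (2.44, 0.055, and 1.76, 0.078). Without all 4 WT libraries with Y-linked transcripts the average of Il27 was 1.30. It was 1.24 (4e-05) with Y-linked transcripts as a covariate, against 0.75 in all libraries without that covariate. Leaving out WT T32 replicate 3 alone gave 1.86 (0.023) for Il10 and 1.39 (0.049) for Il27 at T32. Without WT T16 replicate 1, by contrast, the T16 differences were 0.54 (0.47) for Il10 and -0.22 (0.75) for Il27, and Il6 was at 1.61 (0.02), again with 1 WT library at T16.

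Receptors of these cytokines moved both ways with LPS. Of 11 listed, 10 were tested, and in WT at T6 2 rose and 3 fell, near the 27.3% and 31.9% of all genes tested. Il12rb1, a chain shared by the IL-12 and IL-23 receptors, rose from a mean of 2.88 to 26.1 CPM (log2 3.20 ± 0.35, adjusted p 1.24e-07) and was at 31.3 CPM at T32, the label where Il23r was also highest. Osmr, the oncostatin M receptor chain, rose from 1.24 to 4.05 CPM (1.70 ± 0.46, 0.0034). The fallers were Il6st, from 186 to 76.1 CPM (-1.29 ± 0.17, 1.69e-06), Il6ra, the IL-6-binding chain, from 112 to 40.9 CPM (-1.46 ± 0.17, 3.03e-07), and Lifr, from 16.6 to 4.05 CPM (-2.02 ± 0.41, 0.000287). Between genotypes 1 of 10 receptor genes was called, Il6st, which was higher in KO at T16 (77.3 against 46.9 CPM, 0.72 ± 0.19, 0.0263) and on average (0.40 ± 0.09, 0.00263). That count stands beside 7.64% of all genes called at T16, and on average 22.3% in either direction and 12.1% higher. Among 12 related cytokines outside the 10 genes, 4 were tested. Il19, of the IL-10 family, rose at T6 in WT from 0.145 to 9.31 CPM (5.91 ± 0.65, 1.26e-07) and was higher in KO at T16 (2.46 ± 0.71, 0.0387) and on average (1.25 ± 0.45, 0.0489). Clcf1, a gp130 ligand, rose from 3.85 to 15.6 CPM (2.02 ± 0.32, 1.93e-05).

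Genes of JAK-STAT signalling and its feedback rose broadly with LPS: 14 of 17 were higher and 1 lower in WT at T6, with a median log2 change of 1.49, where 27.3% and 31.9% of all genes were called. The highest rises were those of Socs3, the feedback inhibitor of gp130 signalling, from 12.2 to 2120 CPM (7.44 ± 0.28, 1.25e-13), Jak2, from 29 to 974 CPM (5.07 ± 0.24, 1.63e-12), Socs1 (4.52 ± 0.48, 8.47e-08) and Stat3 (2.91 ± 0.11, 1.35e-13), and Pias3 fell (-0.99 ± 0.17, 3.47e-05). In KO against WT, 4 of 17 were higher on average (12.1% of all genes), among them Jak2 (0.62 ± 0.11, 0.000404), Cish (0.60 ± 0.13, 0.00274) and Stat3 (0.32 ± 0.06, 0.000301). Stat3 was higher at T6 (1400 against 953 CPM, 0.55 ± 0.11, 0.0274) and T16 (0.44 ± 0.12, 0.0306).

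Of 14 genes known to respond to IL-10 or STAT3, 12 rose in WT at T6 (27.3% of all genes). Between genotypes 4 were higher in KO at T16 and the same 4 at T32, where 7.64% and 6.39% of all genes were called in either direction: Il1rn, the secreted IL-1 receptor antagonist (1.75 ± 0.33, 0.00397, and 2.10 ± 0.28, 0.00016), Slamf1 (2.72 ± 0.42, 0.00128, and 2.03 ± 0.37, 0.00223), Arg2, a mitochondrial arginase (1.98 ± 0.31, 0.00145, and 1.54 ± 0.26, 0.00123), and the repressor Bcl6 (0.69 ± 0.16, 0.012, and 0.53 ± 0.14, 0.0258). Mean Il1rn was 5600 CPM in KO against 1660 in WT at T16 and 1790 against 416 at T32. On average 7 of 14 were higher (12.1% of all genes) and 1 lower, Ddit4 (-0.58 ± 0.17, 0.0163; 10.3% of all genes), with a list median of 0.21 against -0.02 over all genes tested. Socs3, Bcl3, Nfil3, Il4ra, Hmox1 and Cd163 of this list did not pass on average.

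Of 30 transcription factors that act on these cytokine genes, 22 rose and 5 fell in WT at T6 (27.3% and 31.9% of all genes). The highest rises were Batf2 (4.96 ± 0.31, 4.35e-11), Batf (4.32 ± 0.32, 5.12e-10), Nfkbiz, an IkB protein needed for Il6 and Il12b transcription (3.45 ± 0.24, 2.44e-10), and Irf7 (3.14 ± 0.26, 1.93e-09). The deepest fall was that of Cebpa, from 155 to 5.36 CPM (-4.85 ± 0.19, 1.45e-13). In KO against WT, Irf7 (1.97 ± 0.24, 8.02e-05) and Batf2 (1.10 ± 0.27, 0.0388) were higher at T0, the NF-kB subunit gene Rel at T16 (0.88 ± 0.25, 0.0381) and Atf3 at T32 (0.70 ± 0.19, 0.0343), where Cebpd was lower (-1.43 ± 0.38, 0.0295). On average 6 of 30 were higher and 2 lower, the latter Cebpd and Batf3, beside 12.1% and 10.3% of all genes. Of 12 regulators of mRNA decay, which bind AU-rich or stem-loop elements of cytokine mRNAs, 7 rose and 3 fell in WT at T6 (27.3% and 31.9% of all genes). Zc3h12a, the Il6 mRNA endonuclease Regnase, rose from 18.2 to 193 CPM (3.41 ± 0.41, 4.36e-07), and Arid5a, which stabilises Il6 mRNA, from 24.3 to 177 CPM (2.86 ± 0.22, 1.02e-09). Zfp36, tristetraprolin, was higher in KO at T32 (748 against 468 CPM, 0.68 ± 0.17, 0.0204), and 3 of 12 were higher on average (12.1% of all genes).

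Over the 23 libraries, which share their time labels, the genes most like each member in log2 CPM were, by Pearson's r, Ptgs2 (0.983), Lpar1 (0.979) and Nlrp3 (0.977) for Il6, Il15 (0.978), Irf1 (0.975) and Phc2 (0.974) for Il10, and Map2k4 (0.977), Tor1aip2 (0.973) and Abhd17b (0.973) for Il12b. Il27 was most like Triobp (0.994), Whamm (0.993) and Cd69 (0.992), and Ebi3 most like Nupr1 (0.98), Milr1 (0.971) and Batf (0.967). The likest genes to Il23r were Kif3c (0.966), Fpr1 (0.965) and Layn (0.961), to Osm Mkrn1 (0.911), Rchy1 (0.91) and Clk4 (0.907), and to Lif Cnn2 (0.877), Sema7a (0.875) and Rgs16 (0.875). Il12a and Il23a averaged under 1 CPM and were left out. Among the 10 genes, Il6 and Il27 had r of 0.963, Il6 and Lif 0.365, and Il6 and Osm -0.589. These values describe a shared time course and carry no test.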

How the data were processed

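PolyA RNA of 23 mouse libraries was sequenced as single 50 bp reads with a kit that does not mark strand, per the labels' protocols, and aligned with GSNAP to GRCm38, per the submitters' processing notes. The counting tool and annotation release are not stated there. The deposited tables hold the authors' raw counts by Ensembl identifier and RPKM values that, per the file headers, are adjusted by size factors (nRPKM). The latter served only for levels per length. Symbols were matched by identifier, and coordinates come from GENCODE on GRCm38.

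Counts were fitted in R 4.3.3 with edgeR 4.0.16 (filterByExpr, TMM, robust quasi-likelihood F test, 1 mean per genotype and time label, all 23 libraries), with Benjamini-Hochberg adjustment over 15782 genes and a threshold of 0.05. Adjusted p-values are from this test unless DESeq2 (1.42.0) is named. Log2 CPM used a prior count of 1; SE is the coefficient divided by the root of F. The median gene moved by -0.94 (WT) and -1 (KO) at T6 with library totals in place of TMM. The fit was tested on simulated data.

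Replicate numbers are those of the deposited sample table. The members and lists were chosen with earlier results of these data known. All 10 members are named in every comparison; of each list, up to 4 called genes per direction with a mean of at least 1 CPM, and genes most like a member as the 3 highest correlations among genes of at least 5 CPM. Genes described as the reason a marker sum differed, and example values beyond this rule, were picked after their values were seen. Alternatives were library totals, DESeq2, no filter, only the groups compared, each library left out, Y-linked transcripts as a covariate, the WT libraries with them left out, and, added after seeing the data, a fit without both T6 replicate 2 libraries and one with the replicate number as a block. Some genes that these rules would name are not reported here.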

Additional observations from a re-analysis of the deposited data

How the results depend on the processing

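Of 63 results that passed the test, 47 kept direction and call in every alternative run. Without the filter on low counts more genes share the adjustment, and the Il27 average narrowly lost its call (0.75, adjusted p 0.05 when rounded), leaving 1 member called. The Il10 average held throughout, at 0.96 to 1.44 with each library left out (adjusted p 0.00016 to 0.0025), and Il27 at 0.58 to 1.07 (0.00044 to 0.023). For KO against WT the number called at T0 became 1 with the Y-linked covariate, at T16 2 with that covariate or without the Y-linked WT libraries, and at T32 2 under both and 1 with DESeq2. Leaving out single libraries gave 0 to 1 at T16 and 0 to 2 at T32. For WT T32 against T16 the count was 3 with DESeq2, 2 with library totals or the covariate, 0 without the filter or with only the groups compared, and 0 to 4 with single libraries left out. For KO T32 against T16 it was 1 to 2 with single libraries left out. Il10 at WT T16 against T0 turned to -0.04 (0.97) without WT T16 replicate 2 and was 1.86 without replicate 1, and Il27 in KO against WT at T16 to -0.22 (0.75) without replicate 1 and was 1.76 without replicate 2. The causes were not tested. The fit without both T6 replicate 2 libraries was chosen after seeing the data. With only the groups compared, low members can fail the filter and then have no value. The labels carry no replicate numbers, but the deposited sample table does. Same-numbered WT and KO libraries deviated together (r over 0.1) in 4 of 11 pairs, among them all 3 at T6 (r of 0.33, 0.59 and 0.36), and the median r was 0.02 between same-numbered and -0.02 between other libraries, so the numbers were not taken to pair samples over the whole series. A replicate block, chosen after seeing the data, gave 0 called at T6 (Il12b 1.35, adjusted p 0.16), 1 at T32 (Il10, 1.42, adjusted p 0.042) and 3 on average with Il12b (0.98, 0.026), and left Il10 at WT T16 uncalled (1.09, 0.067). That block was fitted over all time labels together, so it does not test a pairing at T6 alone. Il23a, Il12a and T0 Il23r rest on few counts, which limits their precision.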
